A study of Tachysurus vachellii with 6 samples.

Results

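The entries described here are the predicted miRNAs of liver-derived extracellular vesicles of the darkbarbel catfish (Pelteobagrus vachellii, named Tachysurus vachellii in the labels). They are all entries of the deposited count table whose name starts with PC, which is read here as a predicted candidate, in contrast to entries named after a miRNA of another animal. The rule found 306 distinct sequences among 841 entries, and the other 535 carried names of known miRNAs. None of the 306 sequences was also listed under a known name. By their names 116 were on a 5p arm and 190 on a 3p arm.

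The hypoxia group comprised 3 libraries from fish kept for 4 h under sealed water into which nitrogen was bubbled, where dissolved oxygen stood at 1.0 mg/L. The normoxia group comprised 3 libraries labelled 4 h, for which the dissolved oxygen was 6.8 mg/L. All fish were acclimated and fasted before the experiment, and vesicles were isolated from liver tissue, although the sample titles name the liver only. The labels do not say whether each library came from its own fish or from a pool, so p-values measure the spread between these libraries, which may be technical.

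A miRNA is cut from a hairpin precursor, and either side of the hairpin can give a mature strand, called the 5p or the 3p arm. The seed, near the 5′ end of the strand, is the stretch through which a miRNA mainly recognises its target mRNAs, and miRNAs with one seed are grouped into a family. A prediction program proposes a new miRNA where reads map to a genomic hairpin that matches no catalogued one. Fragments of other small RNAs, such as tRNAs, can enter such predictions. Vesicles are membrane particles released by cells and carry a selection of small RNA. In RNA of vesicles from a tissue, fewer cells of a type, less RNA per cell and less release into vesicles cannot be told apart.

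The library totals were 2038301, 7234216 and 6039290 counts in hypoxia replicates 1, 2 and 3, and 8497217, 6003250 and 5572737 in normoxia replicates 1, 2 and 3. The shallowest library, hypoxia replicate 1, differed from the other 5 in how many entries it detected. The miR-122 entries, which mark hepatocytes, took 22.4 to 25.6% of all counts in hypoxia and 24.9 to 25.6% in normoxia. Of these 6 entries, 2 were at 0 in at least 1 library. The shares of entries that mark leukocytes, muscle, pancreas and mesenchymal cells were also examined, and they overlapped between groups. Entries of miR-451 and miR-144, which mark red blood cells, took 0.746 to 0.916% in hypoxia and 0.475 to 0.584% in normoxia, and 1 of the 7 entries was at 0 in at least 1 library. Entries of the endothelial miR-126 took 1.58 to 1.84% in hypoxia and 1.17 to 1.32% in normoxia, and 1 of the 5 was at 0 in at least 1 library. The part of these shifts in the differences described here was not tested.

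The most abundant predicted sequences are printed first because a few of them carried most of the reads. Each runs 5′ to 3′ as deposited, with the seed, bases 2 to 8, in capitals.
PC-5p-2540_10513: aTCACTCTtgtttctcttcatct
PC-5p-1147_22613: aTCACTCTtgtttctcttcatt
PC-5p-1446_18052: aAGGTCCAacctcacatgtccgt
PC-3p-2797_9587: cCTCAACTctccctgttcctgg
PC-5p-5000_5140: cCAGGAACagggagcgttgagt
PC-5p-5214_4875: tGTGGTCCtgagtgttgaactc
PC-3p-4779_5410: cAATGTTCctgcagtgcagcat
PC-5p-5625_4493: tGAGGTAGtgctttgtgctgtt
PC-5p-17293_1077: aCACCCTTacttgttatctcat
PC-5p-17118_1094: aAGTTCTGtgatacactctggctt

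The sequences on which the comparison of hypoxia with normoxia turned are 4 entries that passed the test. They are printed in the same way.
PC-3p-36048_315: tCTGGAATggaagcctgcact
PC-5p-45719_199: cAGGACTTagccacatgtgaac
PC-3p-18261_989: aCGGGTGTcttgtccgatgatc
PC-3p-52673_152: aCGGGTGTcttgtccgatgatt
The entries of the second pair share a seed and differ only in their last base, and they belong to a set of 7 near-identical predicted sequences described with the comparison.

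Predicted entries were scarce in reads. Their share of all counts was 0.576, 0.667 and 0.675% in hypoxia replicates 1, 2 and 3, and 0.669, 0.653 and 0.621% in normoxia replicates 1, 2 and 3. The groups overlapped, with means of 0.639 ± 0.0548% in hypoxia and 0.648 ± 0.0244% in normoxia (SD, n = 3 each; exact two-sided permutation test, p = 0.9, where the smallest p of this design is 0.1). Without hypoxia replicate 1 the difference changed sign, to 0.0227 percentage points, and without normoxia replicate 1 it was 0.00173. Abundance is given from here on as CPM, counts per 1000000 of the scaled library total.

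The median predicted entry had a mean of 0.705 CPM over the 6 libraries, against 12.9 CPM for the median known-named entry. No predicted entry reached 1000 CPM, 11 reached 100 CPM, 49 reached 10 CPM and 135 reached 1 CPM. The 5 most abundant held 57.8% of all predicted counts and the 10 most abundant 74.6%. The 5p entries held 69.2% of the predicted counts, although 190 of the 306 entries were 3p. The median entry was not higher on the 5p arm, with a mean of 0.609 CPM against 0.817 CPM on the 3p arm.

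**Figure D1:**
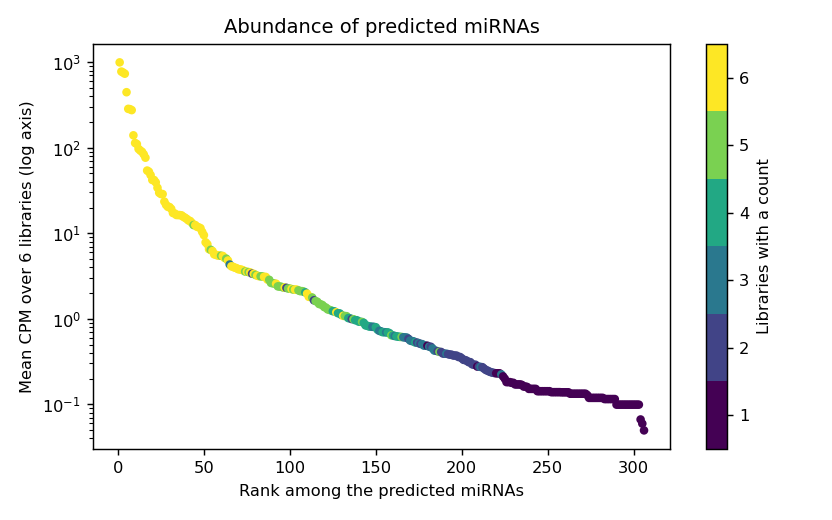
Mean CPM over 6 libraries (log axis) of each of the 306 predicted miRNAs, ranked from the most to the least abundant, coloured by the number of libraries in which the entry had a count. Only 11 entries lie at 100 CPM or above, and the 88 entries with a count in 1 library fill the low end.

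The most abundant entry, PC-5p-2540_10513, stood at 678, 1308 and 957 CPM in hypoxia replicates 1, 2 and 3, and at 934, 1089 and 1012 CPM in normoxia. Its near-identical partner PC-5p-1147_22613 stood at 502, 899 and 673 CPM in hypoxia and at 728, 949 and 796 CPM in normoxia. Hypoxia replicate 1 was the lowest and hypoxia replicate 2 among the highest for both, and the groups overlapped. The log2 fold changes, hypoxia over normoxia, were -0.04 ± 0.21 and -0.25 ± 0.20 (SE). The sign for PC-5p-2540_10513 was not stable, with 0.01 under upper-quartile scaling, 0.19 with offsets for GC content and length, 0.21 without hypoxia replicate 1 and -0.29 without hypoxia replicate 2. That of PC-5p-1147_22613 stayed below 0, at -0.05 with the offsets, -0.02 without hypoxia replicate 1 and -0.47 without hypoxia replicate 2.

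Several abundant entries resembled a catalogued miRNA of the same table. PC-5p-1446_18052 held the whole of the dre-miR-2188-5p sequence with extra bases at its 3′ end, and averaged 778 CPM against 1717 CPM for dre-miR-2188-5p. The known entry was 1.90 to 2.36 times the predicted one in every library. PC-5p-5625_4493 carried the seed of let-7, a family conserved across animals with roles in developmental timing, and averaged 276 CPM against 237 CPM for dre-let-7i, from which it differed at 2 bases. PC-3p-4779_5410 began with the whole of the entry ssa-mir-33b-p3_1ss19AG, the 3p side of miR-33, a miRNA known in mammals for its place within genes of sterol regulation, and averaged 283 CPM against 18.6 CPM. PC-5p-17118_1094 was ssa-miR-152-5p_L-1_2ss19TC20AT with 1 base added at the 3′ end, at 114 CPM against 592 CPM for the known entry. The pairs are set out below with the predicted sequence first, and capitals mark the bases in which they differ or that only one of them has.
PC-5p-1446_18052: aaggtccaacctcacatgtccGT
dre-miR-2188-5p: aaggtccaacctcacatgtcc
PC-5p-5625_4493: tgaggtagtGCtttgtgctgtt
dre-let-7i: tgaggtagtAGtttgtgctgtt
PC-3p-4779_5410: caatgttcctgcagtgcagCAT
ssa-mir-33b-p3_1ss19AG: caatgttcctgcagtgcag
PC-5p-17118_1094: aagttctgtgatacactctggctT
ssa-miR-152-5p_L-1_2ss19TC20AT: aagttctgtgatacactctggct

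Across all predicted entries, 28 were near-identical to a known-named sequence, defined as at most 2 mismatches over at least 16 shared bases with starts shifted by at most 3 bases, and they held 26.9% of the predicted counts. Another predicted sequence was near-identical to 62 entries, and 84 had a partner of either kind. These 84 held 77.7% of the predicted counts. By this definition reads of such partners differ by few bases, and the labels do not say how reads were divided among near-identical sequences, so their separate values are uncertain.

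A seed shared with a known-named sequence was found in 37 predicted entries, 12.1% of the 306, which held 28.7% of the predicted counts. The 306 entries had 272 distinct seeds, and 25 of these were carried by more than 1 predicted entry, 59 entries in all. The let-7 seed was carried by 3 predicted entries and by 17 known-named sequences. Among the 568 known-named sequences, counted before any were joined, 65.5% shared a seed with another known-named one. Of predicted entries, 19.3% shared one with another predicted entry. Both lists hold variants that differ only at the 3′ end, such as oni-let-7a and oni-let-7a_R+1, and such variants share a seed by construction. The shares come from lists of unequal size and are given as a description.

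Predicted entries ranged from 18 to 25 nt, and the median was 22 nt, as it was for known-named entries. Lengths of 21 to 23 nt made up 82.7% of predicted entries and 72.5% of known-named entries. T stood at the first base in 51.6% of predicted and 44.7% of known-named entries, and the median GC content was 45.5% in both. Weighted by counts, the mean length per library was 22.18 ± 0.0416 nt for predicted and 21.59 ± 0.0136 nt for known-named entries (SD, n = 6 libraries). Predicted entries were longer in 6 of 6 libraries, by 0.548 to 0.693 nt (exact sign-flip permutation test, two-sided, p = 0.03125, the smallest that 6 libraries allow; adjusted over 2 tests p = 0.03125). This mean follows the few most abundant entries of either kind. With the same 2 lists in every library, the p-value shows only that the libraries are alike in this.

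**Figure D2:**
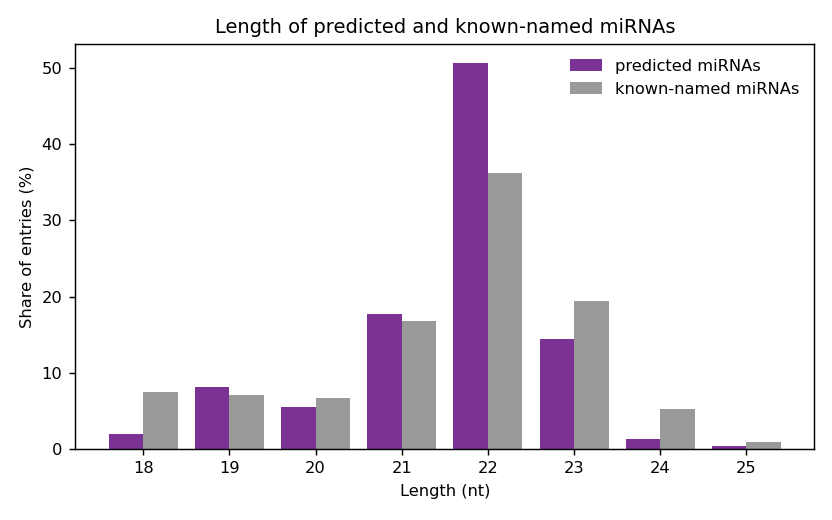
Share of entries (%) at each length in nt, for the 306 predicted miRNAs and the 535 known-named miRNAs. The peak at 22 nt holds 50.7% of predicted and 36.3% of known-named entries.

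Detection differed from library to library. A count was listed for 89, 195 and 189 predicted entries in hypoxia replicates 1, 2 and 3, and for 232, 185 and 184 in normoxia replicates 1, 2 and 3. Hypoxia replicate 1 was far below the other 5 libraries, and 39 entries were listed in all of the others but not in it. The group means were 158 ± 59.5 in hypoxia and 200.3 ± 27.4 in normoxia (SD, n = 3 each), a difference of -42.7 entries (exact two-sided permutation test, p = 0.6). Without hypoxia replicate 1 the difference was -8.33 entries.

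The table appears to begin at 5 counts. No value of 1 or 2 occurred anywhere in it, all 27 nonzero predicted values below 5 reached at least 5 once doubled, and 13.4% of nonzero predicted values were exactly 5. A value of 5 corresponds to 2.45 CPM of the unscaled total in hypoxia replicate 1 and to 0.588 CPM in normoxia replicate 1. An entry listed at 0 may therefore have had reads below this minimum, which was read from the values and not from a stated method. With all libraries thinned to the smallest total and values kept from 5 counts upward, 87, 103 and 97.2 predicted entries were left in hypoxia replicates 1, 2 and 3, and 107, 106 and 98.5 in normoxia replicates 1, 2 and 3. The difference between group means was then -7.97 entries (exact two-sided permutation test, p = 0.2).

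**Figure D3:**
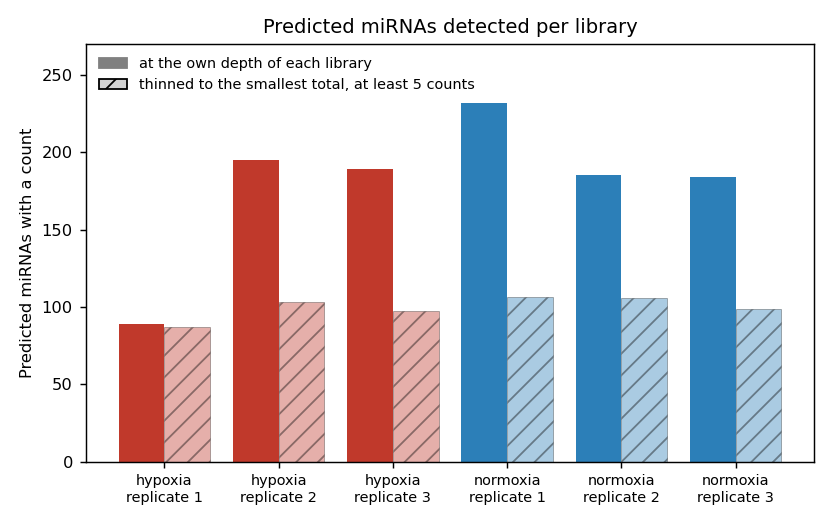
Number of predicted miRNAs with a count in each library, hypoxia in red and normoxia in blue. Solid bars give the number at the depth of each library, with hypoxia replicate 1 at 89 and the others between 184 and 232, and hatched bars give the mean number with at least 5 counts after thinning to the smallest total, between 87 and 107.

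In every library a smaller share of predicted than of known-named entries had a count, 58.5 ± 15.6% against 85.3 ± 8.07% on average (SD, n = 6 libraries). The difference was -26.8 percentage points and ranged from -40.6 to -16.3, lower in 6 of 6 libraries (exact sign-flip permutation test, two-sided, p = 0.03125, the smallest that 6 libraries allow; adjusted over 2 tests p = 0.03125). All 6 libraries listed 86 predicted entries, or 28.1%, against 361 known-named entries, or 67.5%. A single library listed 88 predicted entries, or 28.8%, and none of these exceeded 17 counts. Predicted entries were also less abundant, so these shares are not independent of the levels above. The same 2 lists were compared in every library, so the p-value shows only that the libraries are alike in this.

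Both groups listed 198 predicted entries, hypoxia alone listed 32 and normoxia alone listed 76, against 492, 16 and 27 known-named entries. Of the 76, 34 were listed only in normoxia replicate 1, the deepest library, and none of the 32 was listed only in hypoxia replicate 1, the shallowest. How far depth sets these counts was not tested. No predicted entry had a count in all 3 hypoxia libraries and none in normoxia. For 3 predicted entries all 3 normoxia libraries had a count and hypoxia had none. The same counts are not given for known-named entries, so they do not set predicted entries apart. The most abundant of the 3 predicted entries was PC-5p-65959_97, listed at 0 in each hypoxia library and at 1.90, 3.41 and 20.5 CPM in normoxia replicates 1, 2 and 3. Most of its counts came from normoxia replicate 3. The edgeR fit gave it an adjusted p of 0.0662 (Benjamini-Hochberg), and no fold is given because hypoxia was listed at 0. It passed the filter on low counts only through normoxia, the group where it is high, so its p-value is less certain. DESeq2, edgeR without the filter and edgeR without hypoxia replicate 2 called it, and no other alternative fit did.

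After 4 h of hypoxia 2 predicted entries were higher and 2 were lower than in normoxia among the 114 that passed the filter on low counts. The 114 held 98.5% of the predicted counts, and the other 192 entries, none above 3.37 CPM, were not tested. The 4 calls were 3.51% of the predicted entries tested, beside 2.7% of all 519 entries tested with edgeR at a Benjamini-Hochberg adjusted p under 0.05. The background was 1.54% for entries higher and 1.16% for entries lower in hypoxia, beside 1.75% of predicted entries in each direction. These shares lie near the background, so the number of calls does not set predicted entries apart.

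PC-3p-36048_315 stood at 15.1, 15.6 and 20.3 CPM in hypoxia replicates 1, 2 and 3, and at 7.73, 5.12 and 5.09 CPM in normoxia. PC-5p-45719_199 stood at 18.5, 23.5 and 22.5 CPM in hypoxia and at 11.3, 9.90 and 12.2 CPM in normoxia. All hypoxia libraries lay above all normoxia libraries for both entries. The log2 fold changes were 1.50 ± 0.28 and 0.96 ± 0.22 (SE), and edgeR gave Benjamini-Hochberg adjusted p-values of 0.0475 and 0.0494. Neither had a seed found in a known-named entry or in another predicted entry.

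PC-3p-18261_989 stood at 14.1, 31.6 and 15.0 CPM in hypoxia replicates 1, 2 and 3, and at 87.1, 59.0 and 44.9 CPM in normoxia. PC-3p-52673_152 was listed at 0 in hypoxia replicate 1 and stood at 2.63 and 0.957 CPM in hypoxia replicates 2 and 3, and at 11.4, 9.39 and 8.36 CPM in normoxia. Every hypoxia library lay below every normoxia library for both, and hypoxia replicate 2 was the highest of its group. The log2 fold changes were -1.61 ± 0.35 and -2.72 ± 0.59 (SE), and edgeR gave both the adjusted p of 0.0494 (Benjamini-Hochberg). PC-3p-52673_152 had 0, 19 and 6 counts in hypoxia replicates 1, 2 and 3, where the smallest undivided value listed was 5. It passed the filter on low counts through its normoxia libraries, the group where it is high, so its fold and p-value are less certain.

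The calls sat close to the threshold of 0.05. No predicted entry passed with offsets for GC content and length (edgeR, 20 at an unadjusted p under 0.05, against 16 without offsets), nor without hypoxia replicate 1, hypoxia replicate 3 or any 1 normoxia library. The share of all entries at that unadjusted p is not given for the fit with offsets, so the 20 do not set predicted entries apart. Over all entries the fit with offsets called 3 of 519, and those with a library left out called 0 to 5 each. DESeq2 called 10 predicted entries, 8.77% of those tested, beside 9.83% of all entries, and limma-voom called 3, 2.63% beside 4.24%. In edgeR, 14 were called without the filter, 4.58% beside 7.02%, 1 with total counts only, 0.877% beside 0.963%, and 10 without hypoxia replicate 2, 8.13% beside 9.63%.

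Both lower entries belonged to a set of 7 near-identical 3p sequences, printed with the bases in capitals that differ from PC-3p-18261_989 or extend it.
PC-3p-18261_989: acgggtgtcttgtccgatgatc
PC-3p-26558_541: GcAggtgtcttgtccgatgatc
PC-3p-52673_152: acgggtgtcttgtccgatgatT
PC-3p-45390_202: acAggtgtcttgtccgatgatA
PC-3p-110243_33: acAggtgtcttgtccgatgatcT
PC-3p-143085_17: acAggtgtcttgtccgatgaA
PC-3p-175319_9: cgggtgtcttgtccgatgatc
The differences lie at bases 1 and 3 and at the 3′ end, and PC-3p-175319_9 begins 1 base later than the others. Because base 3 is within the seed, and a later start shifts the seed, the set carries more than 1 seed.

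Summed over the 7 sequences, the level was 19.9, 52.1 and 19.3 CPM in hypoxia replicates 1, 2 and 3, and 145, 108 and 75.2 CPM in normoxia. Averaged over 3 libraries each, this was 30.4 ± 18.8 CPM (SD) under hypoxia and 109 ± 34.9 CPM (SD) under normoxia, without overlap of the groups. The set was described because 2 of its members were called in these same libraries, and PC-3p-18261_989 alone gave 60.1% of the sum. The lack of overlap is therefore no further support. PC-3p-26558_541 stood at 5.83, 13.8 and 2.39 CPM in hypoxia and at 30.9, 29.0 and 16.2 CPM in normoxia. Its log2 fold change was -1.74 ± 0.52 (SE; edgeR Benjamini-Hochberg adjusted p = 0.106). PC-3p-45390_202 was listed at 0 in hypoxia replicate 1, stood at 2.90 and 0.957 CPM in hypoxia replicates 2 and 3, and at 12.1, 8.54 and 5.82 CPM in normoxia. Its hypoxia counts were 0, 21 and 6, and it too passed the filter on low counts through normoxia. Its log2 fold change was -2.49 ± 0.64 (SE; edgeR Benjamini-Hochberg adjusted p = 0.0759). Neither passed the edgeR test, although in both every hypoxia library lay below every normoxia library. Both were called by DESeq2, by edgeR without the filter and by edgeR without hypoxia replicate 2, and by no other alternative fit. These fits also called the most of all entries, 9.83%, 7.02% and 9.63% in the same order. The other 3 members were too low to test. Near-identical sequences may share reads, so the 4 tested members are not independent of each other.

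**Figure D4:**
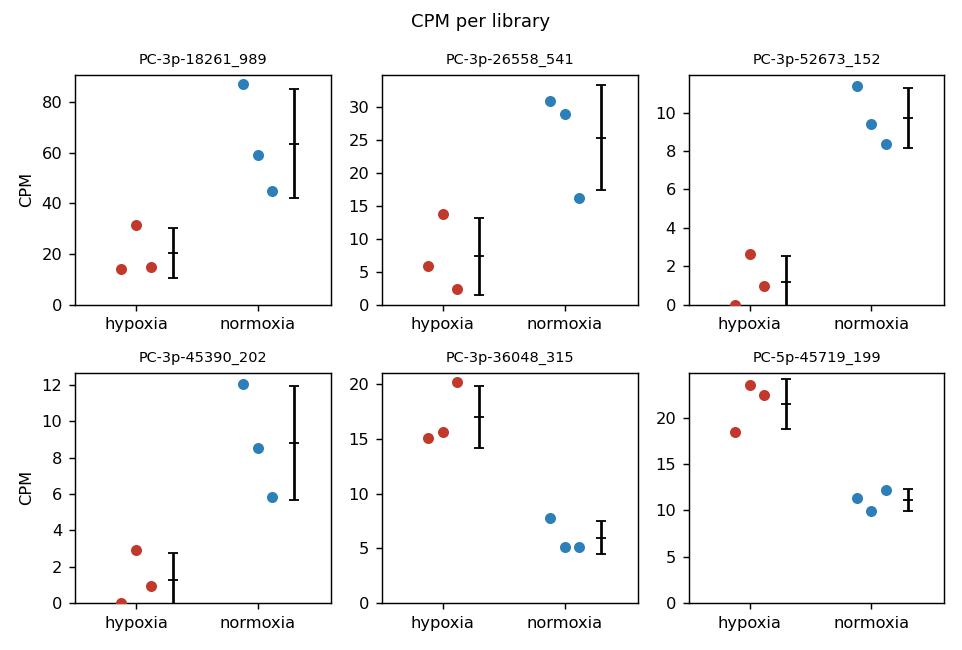
CPM in each hypoxia library (red, left) and each normoxia library (blue, right) for the 4 tested members of the near-identical set of PC-3p-18261_989 and for the 2 entries called higher, PC-3p-36048_315 and PC-5p-45719_199. Black marks give the mean and SD of 3 libraries, cut at 0 on the axis, and in every panel the groups do not overlap.

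Without regard to the test, the hypoxia and normoxia libraries did not overlap for 30 of the 114 predicted entries, 26.3%, beside 25.8% of all entries tested. Of these 9 were higher in hypoxia, 7.89% beside a background of 11.8%, and 21 were lower, 18.4% beside 14.1%. Before adjustment, 14% of the predicted entries had an edgeR p under 0.05, beside 18.5% of all entries tested. The median log2 fold change of the predicted entries tested was -0.18, beside -0.04 over all entries tested, with 42 above 0 and 72 below, beside 232 above and 287 below over all entries tested. Hypoxia replicate 1, the shallowest library, listed 0 for 39 predicted entries that the other 5 libraries listed. Without it the median over all entries tested was 0.05, and the median of the predicted entries alone is not given for that fit. How far its depth sets the lean below 0 was not tested. Standard errors were larger for predicted entries, with a median of 0.43 beside 0.22 for known-named ones.

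**Figure D5:**
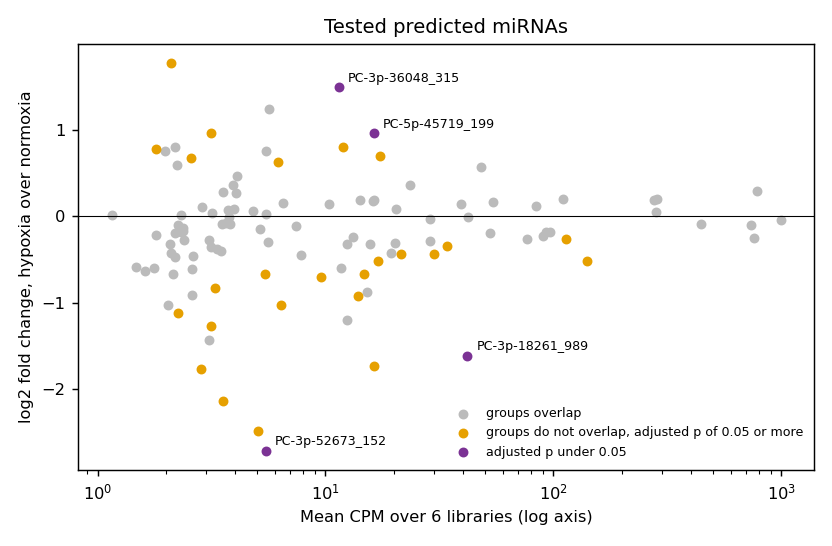
Log2 fold change, hypoxia over normoxia, against mean CPM (log axis) for the tested predicted miRNAs except PC-5p-65959_97, which was listed at 0 in hypoxia. The 4 called entries are named, at 1.50, 0.96, -1.61 and -2.72, and the most abundant entries lie near 0.

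Among entries that did not pass the edgeR test but whose groups did not overlap, PC-5p-29317_459 carried the seed of miR-26, a family of abundant liver miRNAs, and stood at 7.29, 12.2 and 8.77 CPM in hypoxia replicates 1, 2 and 3, and at 16.8, 17.2 and 21.3 CPM in normoxia. Its log2 fold change was -0.93 ± 0.26 (SE; edgeR Benjamini-Hochberg adjusted p = 0.0882). It was called by DESeq2, by edgeR without the filter and by edgeR without hypoxia replicate 2, and by no other alternative fit. The near-identical gmo-miR-26b-5p_R+1_1ss22TA, which differs from it in the last base, stood at 18.0, 39.9 and 28.2 CPM in hypoxia and at 58.2, 74.6 and 69.2 CPM in normoxia, and fell by 1.19 on the log2 scale (edgeR, Benjamini-Hochberg adjusted p = 0.0494). The abundant dre-miR-26b averaged 11712 CPM and differed by -0.35 on the log2 scale (edgeR Benjamini-Hochberg adjusted p = 0.0882). Their sequences are set out with capitals at the bases in which the predicted entry and its partner differ.
PC-5p-29317_459: ttcaagtaatccaggataggtaG
gmo-miR-26b-5p_R+1_1ss22TA: ttcaagtaatccaggataggtaT

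PC-3p-94562_47 was listed at 0 in hypoxia replicate 1, stood at 0.691 and 2.71 CPM in hypoxia replicates 2 and 3, and at 5.47, 5.98 and 6.54 CPM in normoxia (edgeR Benjamini-Hochberg adjusted p = 0.121). Its hypoxia counts were 0, 5 and 17, and it passed the filter on low counts through normoxia. DESeq2 and edgeR without the filter called it, and no other alternative fit did. In the other direction PC-3p-33261_366 stood at 10.7, 19.2 and 15.3 CPM in hypoxia and at 9.15, 8.45 and 8.63 CPM in normoxia, with a difference of 0.80 ± 0.27 on the log2 scale (SE; edgeR Benjamini-Hochberg adjusted p = 0.144). PC-3p-91974_50 had 9, 13 and 24 counts in hypoxia replicates 1, 2 and 3, and 13, 0 and 6 in normoxia. Its fold therefore rests on values near the smallest undivided value listed, 5. It passed the filter on low counts through its hypoxia libraries, the group where it is high, so its fold is less certain. The log2 fold changes of PC-3p-91974_50, PC-5p-67338_94 and PC-5p-55078_139 were 1.78 ± 0.87, 0.96 ± 0.48 and 0.63 ± 0.35 (SE), and none passed the edgeR test. All of them averaged below 7 CPM except PC-3p-33261_366, which averaged 11.9 CPM.

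Of the 10 most abundant predicted entries none passed the edgeR test, although DESeq2 alone called PC-5p-17293_1077 (Benjamini-Hochberg adjusted p = 0.0478). That entry came nearest in edgeR too, at 118, 115 and 111 CPM in hypoxia replicates 1, 2 and 3 and at 130, 168 and 196 CPM in normoxia. Every hypoxia library lay below every normoxia library, and the difference was -0.52 ± 0.17 on the log2 scale (SE; edgeR Benjamini-Hochberg adjusted p = 0.144). PC-5p-17118_1094 stood at 108, 104 and 97.1 CPM in hypoxia and at 131, 117 and 123 CPM in normoxia, also without overlap (-0.27 ± 0.14 on the log2 scale, SE; edgeR Benjamini-Hochberg adjusted p = 0.339). The other 8 overlapped between groups, and their log2 fold changes lay between -0.25 and 0.29.

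The entries in the following accounts of arm pairs, a nested set and a large near-identical set were chosen after their values were seen. Neither names nor columns tie a 5p entry to a 3p entry, so possible arm pairs were sought among the 87 cases in which a 3p entry follows a 5p entry in the table. In 19 of these each strand was the strongest binding partner of the other among all 116 5p and 190 3p entries, by the energy of the predicted duplex. The energies ran from -39.4 to -17.7 kcal/mol with a median of -31.3, and 16 to 21 bases were paired. The remaining neighbours had a median of -6.9 kcal/mol. That a pair comes from 1 precursor was not tested, because no precursor sequences were used here.

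In 9 of the 19 pairs the 5p entry was the more abundant and in 10 the 3p entry, and the ratio exceeded 10 in 4. The most abundant pair was PC-5p-5000_5140 with PC-3p-2797_9587. The 5p strand stood at 470, 369.7 and 459 CPM in hypoxia replicates 1, 2 and 3, and at 501, 429 and 447 CPM in normoxia. The 3p strand stood at 849, 474 and 803 CPM in hypoxia and at 859, 778 and 646 CPM in normoxia. The 3p strand was the higher in all 6 libraries, and hypoxia replicate 2 was the lowest library for both. The duplex had -38.2 kcal/mol over 20 base pairs.

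In the pair of PC-5p-17293_1077 with PC-3p-20325_835 the 5p strand was the higher in all 6 libraries, at 140 CPM on average against 96.9 CPM. The log2 fold change of the 3p strand was -0.19 ± 0.21 (SE), with overlapping groups, beside -0.52 for the 5p strand. In the pair of PC-5p-121787_26 with PC-3p-47333_186 the averages were 0.963 CPM and 28.7 CPM. In the pair of PC-5p-24291_628 with PC-3p-193736_6 they were 28.8 CPM and 0.0594 CPM, and the 3p strand had counts in normoxia replicate 1 only. The same 5p strand also paired with PC-3p-104296_38, near-identical to that 3p strand, at -38.2 against -38.5 kcal/mol and 20 base pairs. PC-3p-104296_38 averaged 1.48 CPM with counts in 5 libraries, so the ratio of the arms was 484 with the one and 19.5 with the other. Both arms were tested in 7 pairs, and their log2 fold changes had the same sign in 4. The strands of these pairs are printed in full.
PC-5p-17293_1077: acacccttacttgttatctcat
PC-3p-20325_835: tgagataacaagtaagggcgt
PC-5p-121787_26: agcctcatacagagccagatgc
PC-3p-47333_186: atctggctctgtatgaggctacc
PC-5p-24291_628: tctgctaccagaagggctgttt
PC-3p-193736_6: acagcccttctggtagtagatc

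A nested set of 9 predicted 3p entries shared 1 core of bases, printed in capitals, and differed only in where they began and ended.
PC-3p-59687_118: gttcgaCTCCCGGTATGGGAACCa
PC-3p-60986_114: ttcgaCTCCCGGTATGGGAACCa
PC-3p-21327_773: tcgaCTCCCGGTATGGGAACCa
PC-3p-39152_269: tcgaCTCCCGGTATGGGAACC
PC-3p-36884_302: CTCCCGGTATGGGAACCa
They were 18 to 24 nt long, and 6 of the 9 ended in CCA, the triplet that mature tRNAs carry at their 3′ end. The other 4 averaged 1.11 CPM or less, and no known-named entry held the core. Over all predicted entries 9 ended in CCA, 2.94%, against 28 known-named entries, 5.23%.

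Summed over the 9 entries, the nested set stood at 64.9, 55.9 and 54.4 CPM in hypoxia replicates 1, 2 and 3, and at 57.2, 74.2 and 61.3 CPM in normoxia. The groups overlapped. The shortest form, PC-3p-36884_302, stood at 31.6, 17.7 and 15.5 CPM in hypoxia and at 11.5, 13.8 and 13.4 CPM in normoxia, with every hypoxia library above every normoxia library (0.70 ± 0.29 on the log2 scale, SE; edgeR Benjamini-Hochberg adjusted p = 0.238). PC-3p-39152_269, which lacks the final base, stood at 4.37, 8.15 and 8.61 CPM in hypoxia and at 10.8, 13.8 and 11.3 CPM in normoxia, with every hypoxia library below every normoxia library (log2 fold change -0.70 ± 0.30, SE; edgeR Benjamini-Hochberg adjusted p = 0.256). Of the 5 forms tested 3 were below 0 and 2 above 0, and none passed the test.

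A larger set held 16 near-identical sequences around PC-3p-59078_121, of which 5 were tested and none passed in edgeR. Without the filter on low counts, edgeR called PC-3p-59078_121, which no other alternative fit did. The 16 are linked through intermediates, and 7 of them have 3 mismatches to PC-3p-59078_121. The most abundant members are printed with capitals at the bases that differ from PC-3p-59078_121 or extend it.
PC-3p-59078_121: tatggaggtgaatggggctcgt
PC-3p-39068_270: tatggaggtgaatgAAgctcgt
PC-3p-67833_92: tGtggaggtgaatggggctcgt
PC-3p-62598_108: tatggaAgtgaatAgggctcAtT
Summed over the 16, the level was 12.2, 41.3 and 38.0 CPM in hypoxia replicates 1, 2 and 3, and 60.9, 48.2 and 42.1 CPM in normoxia. Hypoxia replicate 1 was far below the other 5 libraries, and the highest of the other hypoxia libraries lay just under the lowest normoxia library. Of the 16 members, only PC-3p-59078_121 and PC-3p-39068_270 had a count in hypoxia replicate 1, the shallowest library. PC-3p-39068_270 had a log2 fold change of 0.15, and the other 4 tested members lay below 0. Of these, PC-3p-62598_108 stood at 0, 2.21 and 1.12 CPM in hypoxia replicates 1, 2 and 3, and passed the filter on low counts through normoxia. Near-identical sequences may share reads, so these signs are not independent of each other. In all, near-identical predicted entries fell into 18 sets, and besides the sets of 16, 9 and 7 the other 15 were pairs.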

How the data were processed

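The authors deposited 1 table of estimated counts per library, unscaled per the file headers. The aligner, miRNA caller and genome build were not given in the sources used here. All 306 predicted sequences came from 352 listings, and the 46 listed 2 times, always with equal values, were summed. After summing 95.5% of nonzero values were whole within 1e-06, and all after doubling. Known-named sequences with identical values in all libraries were joined in 18 groups. Counts were rounded, filtered with filterByExpr, scaled by TMM and tested over all entries with edgeR 4.0.16 (glmQLFit, glmQLFTest, no block) in R 4.3.3, with Benjamini-Hochberg adjustment over 519 entries. The SE of a log2 fold change is its size over the root of F. Exact permutation tests compared libraries. Group tests formed a family of 4, in which every adjusted p was 0.9. Duplexes were computed with ViennaRNA 2.7.2. DESeq2 1.42.0, limma 3.58.1, other scalings and left-out libraries were alternatives. No molecular identifiers are mentioned, so counts carry more than counting error.

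Entries named are those called, the 10 most abundant, the 5 uncalled per direction with the lowest p and no overlap between groups, their near-identical partners, and those of at least 5 CPM with a 0, up to 30 in all. Others named were chosen after their values were seen. The members and lists were chosen with earlier results of these data known.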

Additional observations from a re-analysis of the deposited data

How the results depend on the processing

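The count of 4 predicted entries called was 4 with DESeq2 size factors (14 of all 519 entries) and with upper-quartile scaling (13 of all 519). It was also 4 with listed values taken once (12 of all 495) and 3 with limma-voom (all entries 4.24%). It was 1 with total counts only (all entries 0.963%), 14 with no filter on low counts (2 higher, 12 lower, of 306; all entries 7.02%) and 10 with DESeq2 (2 higher, 8 lower; all entries 9.83%). It was 0 with offsets for GC content and length (edgeR, 20 at an unadjusted p under 0.05) and 0 with every distinct sequence kept apart (15 at an unadjusted p under 0.05). Over all entries these fits called 3 of 519 and 3 of 546. Leaving out 1 library gave 0 to 10 calls. Only the fit without hypoxia replicate 2 gave 10 (all entries 9.63%). The other 5 gave 0, with 13 to 19 at an unadjusted p under 0.05. Over all entries those 5 fits called 0 to 5, of 535 to 554 tested. For the alternative fits no share over all entries is given beside the unadjusted counts, so these do not set predicted entries apart. The causes were not tested. The 4 calls kept their direction in all 17 alternatives: the log2 fold change ranged from -2.11 to -1.28 for PC-3p-18261_989, from -3.80 to -2.37 for PC-3p-52673_152, from 1.37 to 1.79 for PC-3p-36048_315 and from 0.86 to 1.09 for PC-5p-45719_199. In the same order they were called in 7, 6, 8 and 7 of the 17. The 4 were picked from these same libraries with groups that do not overlap, so the kept direction is no further support.

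Deviations of same-numbered libraries from their group means correlated at -0.13, -0.06 and -0.05, and those of differently numbered libraries at -0.06 to 0.12. In a group of 3 libraries such deviations sum to 0. The check therefore cannot show whether the replicate numbers pair the samples. With the replicate number as a block, 0 predicted entries passed (edgeR, 17 at an unadjusted p under 0.05), and 0 with the block and the offsets together (18). Over all entries these fits called 7 and 4 of 519. Leaving out 1 library moved the difference in predicted share from -0.0267 to 0.0227 percentage points, reversed to 0.0227 without hypoxia replicate 1 and to 0.00173 without normoxia replicate 1. It moved the difference in entries detected from -61.3 to -8.33, the difference in detected share from -28.9 to -24.0 points and that in length from 0.575 to 0.604 nt; with 5 libraries the last 2 tests cannot reach the threshold. Thinning with a minimum of 5 counts, and leaving out libraries in the comparisons of predicted with known-named entries, were chosen after seeing the data. The smallest undivided value listed, 5 counts, is 2.45 CPM of the unscaled total in hypoxia replicate 1 and 0.588 to 0.897 CPM in the others, so the absence of an entry near or below these levels could not be told from low depth.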

Other observations

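A pair of low predicted entries was carried by normoxia replicate 3. PC-5p-65959_97 had 20.5 CPM there, against 1.90 and 3.41 CPM in normoxia replicates 1 and 2. PC-5p-60572_115, the most abundant predicted entry that was not tested, had 18.9 CPM there and 1.31 CPM in normoxia replicate 1, and was listed at 0 in the other 4 libraries. Both were chosen after their values were seen, and PC-5p-60572_115 ends in CCA.
PC-5p-60572_115: tttcgctgcttctccaCCA

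PC-5p-9853_2339, the predicted entry next in abundance after the 10 most abundant, begins with the whole of the known entry tni-miR-15b_R-2_1ss20GT and has 1 more base, in capitals. It averaged 111 CPM, against 5.17 CPM for the known entry. It stood at 131, 105 and 120 CPM in hypoxia replicates 1, 2 and 3, and at 107, 95.9 and 105 CPM in normoxia, with overlapping groups and a log2 fold change of 0.21 ± 0.15 (SE). It was chosen after its values were seen.
PC-5p-9853_2339: tagcagcgcatcatggttttC
tni-miR-15b_R-2_1ss20GT: tagcagcgcatcatggtttt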
